A study of Mus musculus with 12 samples.

Results

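The interferon-inducible GTPases are large GTP-binding proteins that cells make in response to interferon and that act against intracellular pathogens. A list of 9 mouse genes from 3 families was examined: Irgm1, Irgm2, Igtp and Iigp1 of the immunity-related GTPases (IRG), Gbp2, Gbp3 and Gbp5 of the guanylate-binding proteins (GBP), and the myxovirus resistance genes Mx1 and Mx2. A gene was taken as measured where the array had a probe set annotated to its symbol and no other. That held for 6 of the 9 genes, Irgm1, Iigp1, Gbp3, Gbp5, Mx1 and Mx2, each with 1 probe set, among 19938 genes tested in all. Irgm2 and Igtp share a probe set, and Gbp2 shares one with Gbp2b, so these 3 genes have no value of their own here and their shared probe sets are described separately.

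The RNA came from serum-starved mouse embryonic fibroblasts, primary cells that had reached passage 4 in 10% serum and were then kept in 0.1% serum for 72 h. There were 4 groups of 3 arrays (12 in all): Rb1 S/S mutant cells, the Rb1 +/+ cells matched to them (S controls, together the S set), Rb1 L/L mutant cells, and the Rb1 +/+ cells matched to those (L controls, together the L set). The retinoblastoma protein, product of Rb1, represses cell cycle genes, and the title of the series names silencing of retroelements. The labels give neither the strain, the embryo age nor the change that the S and L alleles make. They do not say whether the replicates were separate embryos, so the p-values here reflect only how these 12 samples scatter. In each L group array 1 read male and the others female (below), so each L group held cells of more than 1 embryo. Among arrays of the same sex in a group the scatter may be technical. Because the alleles are not described, the Rb1 level checks no label; it was 8.68 ± 0.30 in S controls and 9.55 ± 0.19 in S/S (SD, n = 3), a difference that did not pass (limma adjusted p = 0.0976). In the L set Rb1 was 8.97 ± 0.32 in controls and 9.33 ± 0.09 in L/L (SD, n = 3), which did not pass either (limma adjusted p = 1.00).

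In textbook accounts, type I interferons act through the receptor chains Ifnar1 and Ifnar2 and factors such as Stat2 and Irf9 at the interferon-stimulated response element (ISRE). Interferon gamma acts through Ifngr1 and Ifngr2, through the gamma-activated site (GAS), and through Irf1, which binds sites like the ISRE. IRG and GBP genes are known as strong interferon gamma targets, while Mx genes respond mainly to type I and type III interferons. Irgm1, Irgm2 and Igtp are regulatory IRG proteins that sit on the cell's own membranes and hold effector IRG proteins such as Iigp1 inactive there. Effector IRG and GBP proteins load onto the vacuoles of pathogens, with help from the autophagy conjugation machinery. The Mx proteins are dynamin-like, and mouse Mx1 is known as a nuclear inhibitor of influenza virus.

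The promoters are shown first, because the ISRE and the GAS are the elements known to carry the interferon response of these families. RefSeq promoters (GRCm38.p6) were used for 6 of the 9 genes: Irgm1, Irgm2, Igtp, Gbp2, Gbp3 and Gbp5. The 250 bases before each start were searched on both strands for GAAANNGAAA, the core of the ISRE and of IRF sites, and for TTCNNNGAA, the core of the GAS. Each of the 6 genes had at least 1 match to the first core, although the other of 2 start sites of Gbp3 had none, while 3.46% of 27025 genes had a promoter that held it. The second core occurred in 3 of the 6 genes (Irgm2, Igtp and Gbp5) and in 8.13% of all genes. A match is a description of letters, not evidence of a bound factor. The sequences run 5′ to 3′ on the gene's strand up to the base before the start, and capitals mark matches. Irgm1 and Gbp5, the member that rose and a member near the undetected level, are shown over 250 bases, the others over the last 120.

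Irgm1, chr11:48871421-48871670, minus strand: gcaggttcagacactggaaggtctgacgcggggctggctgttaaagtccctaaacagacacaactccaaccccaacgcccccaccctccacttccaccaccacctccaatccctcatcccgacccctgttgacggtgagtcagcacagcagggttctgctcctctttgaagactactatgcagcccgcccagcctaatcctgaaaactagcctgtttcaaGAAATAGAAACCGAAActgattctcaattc
Gbp5, chr3:142496684-142496933, plus strand: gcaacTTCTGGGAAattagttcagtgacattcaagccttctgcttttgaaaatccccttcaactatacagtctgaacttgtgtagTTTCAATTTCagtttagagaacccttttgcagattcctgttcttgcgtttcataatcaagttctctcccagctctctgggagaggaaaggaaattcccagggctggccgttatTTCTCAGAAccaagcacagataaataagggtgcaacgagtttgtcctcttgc
Gbp3, first start, chr3:142559924-142560043, plus strand: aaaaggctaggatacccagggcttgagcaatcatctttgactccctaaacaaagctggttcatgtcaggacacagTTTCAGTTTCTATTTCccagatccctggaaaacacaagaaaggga
Gbp2, chr3:142620543-142620662, plus strand: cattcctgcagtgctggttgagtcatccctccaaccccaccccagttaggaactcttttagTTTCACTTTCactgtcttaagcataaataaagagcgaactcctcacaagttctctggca
Irgm2, chr11:58214857-58214976, plus strand: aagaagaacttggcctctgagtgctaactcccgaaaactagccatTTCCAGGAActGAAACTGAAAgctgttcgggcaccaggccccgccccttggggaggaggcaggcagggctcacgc
Igtp, chr11:58199436-58199555, plus strand: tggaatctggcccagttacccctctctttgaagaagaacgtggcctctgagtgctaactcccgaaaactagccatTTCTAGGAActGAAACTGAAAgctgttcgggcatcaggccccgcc

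In Irgm1 a pair of overlapping ISRE cores lay between 30 and 15 bases before the start, and in Gbp3 a pair on the other strand lay between 45 and 30 bases before its first start. The single ISRE core of Gbp5 lay farther upstream, between 165 and 156 bases before the start. In Irgm2 and Igtp the GAS core stood just upstream of the ISRE core, and the longest run shared by the 120 bases shown for these neighbouring genes was 38 bases. Neither the sequence of Irgm1 nor that of Gbp3 shown here contained a GAS core.

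The 10 fibroblast markers each had a mean over the arrays of at least 6, with Col1a1, the main collagen gene, at 12.53 to 12.99 in the 4 groups. In L/L 9 of the 10 were lower than in L controls, while 55.9% of all genes were higher. Their median was −0.15, against 0.02 over all genes, and none passed. L/L arrays lay below all controls for 5 of the 10, a count for which no share over all genes was computed. Values are log2 RMA, that is, background-corrected and normalized between arrays, and array medians lay between 6.85 and 7.01. S control array 1 stood apart, with a residual SD around its group mean of 0.325, against 0.0933 to 0.193 for the others. Sex was read from Xist, an RNA of female cells. It was 5.06 in L control 1 and 5.41 in L/L array 1, which read male. In the other 10 arrays it was over 8, and these read female. Uty, Kdm5d and Eif2s3y, Y-linked genes which female cells lack, read 3.82 to 5.51 in the 10 female arrays. This range is used below as the undetected level. It rests on these genes alone, and the background of other probe sets may differ. A value above it does not by itself show expression. Macrophage and blood cell markers lay higher in S/S than in S controls, by a median of 0.68 over 15 markers. Of these, 15 of 15 were positive, against 42.4% of all genes. S/S arrays lay above all controls for 14, against 5.49% of all genes. None of the 15 passed the test; Cd68, a lysosomal protein of macrophages, differed by 1.22 (adjusted p = 0.512) and Itgam (CD11b) by 0.74 (adjusted p = 0.315). Their summed level, on a log2 scale, was 12.50 to 12.73 in S controls and 13.30 to 13.47 in S/S, and it was 11.79 to 14.15 in L controls and 11.36 to 13.34 in L/L. None of the 15 had a group mean in the undetected range: the lowest was 6.15, that of Ptprc (CD45). Macrophages express many interferon-stimulated genes, and the part of these cells in the results below was not tested. Medians in S/S were 0.05 for the fibroblast, −0.06 for 5 endothelial and −0.13 for 4 epithelial markers, of which none passed. The endothelial marker Emcn differed by 1.62 in S/S (adjusted p = 0.197) with no overlap, and the summed endothelial level, on a log2 scale, was 8.71 to 8.76 in S controls and 9.21 to 9.37 in S/S, while it was 9.24 to 9.78 in L/L and reached 9.84 in L controls. Its part in the results below was not tested. In bulk RNA a change in the number of cells of a type and a change in RNA per cell cannot be told apart.

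The S/S mutant was compared with S controls. Irgm1 rose 1.86-fold in S/S and was the 1 of 6 measured members that passed the test, against 0.0903% of all genes that passed as higher. Mx2 was 1.03 higher on the log2 scale but did not pass, and its controls lay within the undetected level, so that no exact fold can be given. Iigp1 and Gbp3 were slightly higher, Mx1 differed by 0.01, and Gbp5 was lower, all without passing. The median difference over the 6 genes was 0.21 on the log2 scale, with 5 positive, and over all 19938 genes it was −0.04, with 42.4% positive.

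Irgm1 was well expressed in every array. It read 8.96, 9.46 and 9.39 in S controls and 10.13, 10.29 and 10.07 in S/S, means of 9.27 ± 0.27 and 10.17 ± 0.11 (SD, n = 3). All 3 S/S arrays lay above all 3 controls, and S control 1, the array that stood apart, was the lowest. The log2 difference was 0.90 (SE 0.14, limma adjusted p = 0.0367), the 12th smallest p among all genes. Without S control 1 the difference was 0.74 (adjusted p = 0.0272). The call held in 4 of 12 fits that left out 1 array, and the difference stayed between 0.74 and 1.00 in them. The fits that lost it left out S control 2 (adjusted p = 0.0733) or 3 (0.0537), S/S array 1 (0.145), 2 (0.177) or 3 (0.0856), L control 2 (0.0778), or L/L array 1 (0.0534) or 3 (0.0563). The last 3 lie outside the S set and leave the S/S difference itself at 0.90. The call was also lost without both male arrays (adjusted p = 0.0508) and with each set fitted alone (0.11).

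The L set gives Irgm1 values at very different macrophage marker levels within 1 genotype. In L controls the mean of the 15 markers, relative to all arrays, was −0.87, −0.04 and 1.11, and Irgm1 was 9.73, 9.86 and 9.71. In L/L the markers were at −1.19, 0.39 and 0.20 and Irgm1 at 10.02, 10.33 and 10.01. In the S set the markers were at −0.41, −0.27 and −0.17 in controls and 0.42, 0.35 and 0.48 in S/S, so they separated the same arrays that Irgm1 separated. Gbp3, in contrast to Irgm1, was ordered like the markers in L controls, at 6.74, 7.33 and 7.53. The part of macrophages in either gene was not tested.

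Mx2, a cytoplasmic member of the Mx pair in rodents, was low. It read 4.97, 5.04 and 5.32 in S controls, within the undetected range, and 6.25, 6.16 and 6.02 in S/S, above it. The groups did not overlap, and the log2 difference was 1.03 (SE 0.18, adjusted p = 0.0578). With Irgm1 this made 2 of 6 members whose S/S arrays all lay above controls, against 5.49% of all genes. Mx1 stayed within the undetected range in all 12 arrays, with 4.87, 4.66 and 4.82 in S controls and 4.85, 4.63 and 4.90 in S/S. RefSeq's reference genome, from C57BL/6J, annotates both Mx genes as transcribed pseudogenes, and loss of Mx1 function is well known in inbred laboratory mice.

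**Figure D1:**
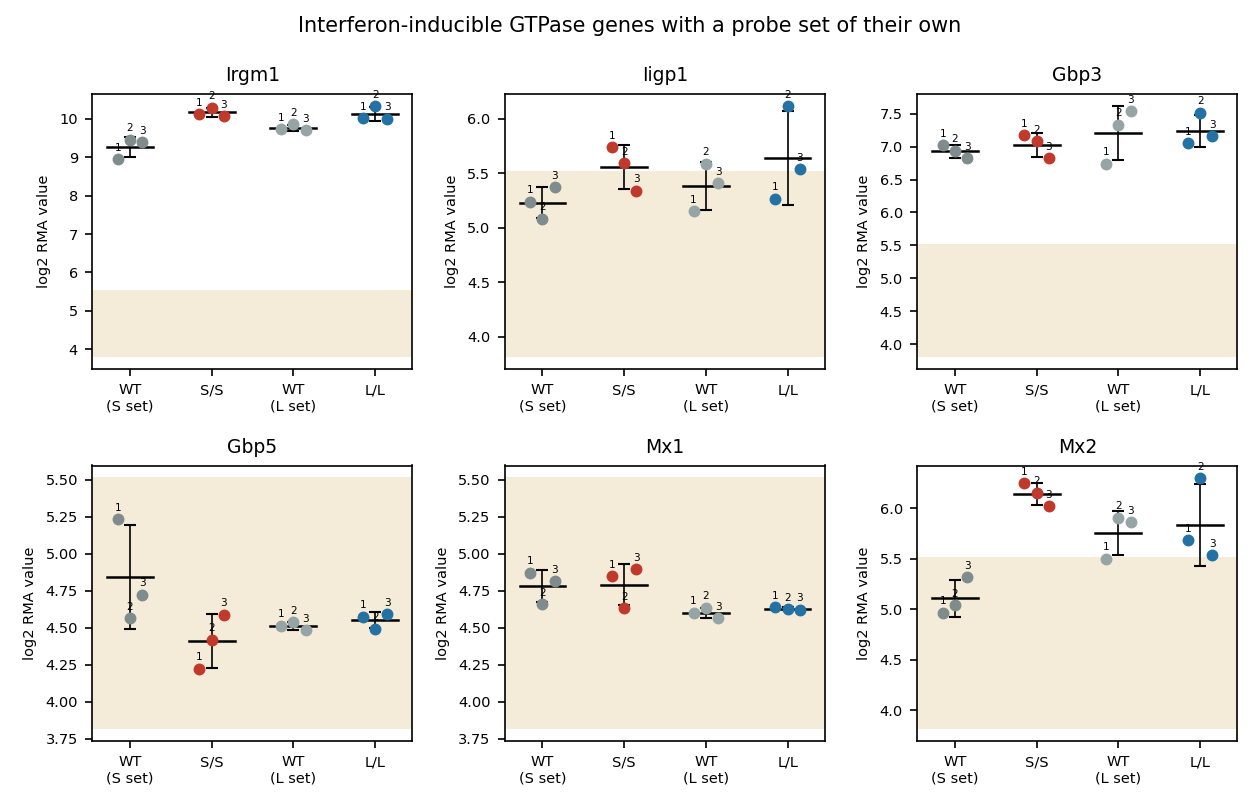
Log2 RMA values of the 6 genes with their own probe set in each array (points, with the replicate number), with group mean and SD (bars, n = 3); the shaded band is the range of Y-linked genes in female arrays, 3.82 to 5.51. Irgm1 lies far above the band in every group, Gbp5 and Mx1 lie inside it, and Mx2 lies inside it in S controls and above it in S/S, in L/L and in 2 of 3 L controls.

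Among effector GTPases, Iigp1 hardly left the undetected range. It read 5.24, 5.08 and 5.37 in controls and 5.74, 5.59 and 5.34 in S/S, where the groups overlapped. The difference was 0.32 (SE 0.19, adjusted p = 0.549). Gbp3, the member of the GBP family with a clear signal of its own, read 7.03, 6.94 and 6.83 in controls and 7.17, 7.08 and 6.82 in S/S. These groups overlapped as well, with a difference of 0.09 (SE 0.19, adjusted p = 0.858). Gbp5, known for promoting inflammasome assembly, read 5.24, 4.56 and 4.72 in controls and 4.22, 4.42 and 4.59 in S/S. All of these lay in the undetected range, and the highest came from S control 1, the array that stood apart. The difference was −0.43 (SE 0.15, adjusted p = 0.39), and −0.23 without that array.

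The shared probe sets add the remaining members and close relatives of Irgm1, tested in a fit over all 35556 probe sets. The probe set of Irgm2 and Igtp, both regulatory IRG genes, read 7.42, 7.33 and 7.49 in S controls and 7.75, 7.73 and 7.66 in S/S. The groups did not overlap, but the difference of 0.30 (SE 0.22) did not pass (adjusted p = 0.65). The probe set of Gbp2 and Gbp2b read 8.21, 8.84 and 8.76 in controls and 8.87, 8.92 and 9.10 in S/S, where the lowest S/S array lay just above the highest control array. Its difference of 0.36 (SE 0.20) did not pass either (adjusted p = 0.579).

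Larger differences were seen among the other shared probe sets. Tgtp1 and Tgtp2, near-identical effector IRG genes that follow it closely in the gene order of chromosome 11, share 2 probe sets that both rose in S/S. Probe set 10385518 read 6.96, 7.15 and 7.36 in controls and 8.20, 8.29 and 8.21 in S/S, a 2.10-fold rise (log2 1.07, SE 0.13, adjusted p = 0.0119). Probe set 10385533 rose 1.87-fold, from 7.58 ± 0.14 to 8.48 ± 0.06 (SD, n = 3, log2 0.90, SE 0.12, limma adjusted p = 0.0172). These were the 2 of 11 shared IRG, GBP and giant GTPase probe sets that passed, against 0.0816% of all probe sets that passed as higher. In this larger fit Irgm1 had an adjusted p of 0.0526. A pair of probe sets of 9930111J21Rik1 and 9930111J21Rik2, which alternate with the Tgtp genes along the chromosome, had differences of 0.82 (adjusted p = 0.0979) and 0.77 (adjusted p = 0.103). S/S arrays lay above all control arrays in both. On chromosome 7, the probe set of Gm4070 and the giant GTPase gene Gvin1 differed by 0.95 without passing (SE 0.28, limma adjusted p = 0.33). Its means were 6.72 in S controls, 7.67 in S/S, 7.69 in L controls and 7.74 in L/L, so the controls of both sets differed by 0.97. The probe set of Olfr56 and Ifi47, an IRG gene, differed by 0.52 (SE 0.15, limma adjusted p = 0.305). In both of these the S/S arrays again lay above all S controls. That held for 8 of the 11 shared probe sets in S/S, and for 0 in L/L against L controls. The share without overlap was computed over genes only, where it was 5.49% in S/S, and not over all probe sets. The promoters of Tgtp1 and Tgtp2 each held 1 ISRE core and 1 GAS core, and those of the 9930111J21Rik genes held neither in the window searched.

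**Figure D2:**
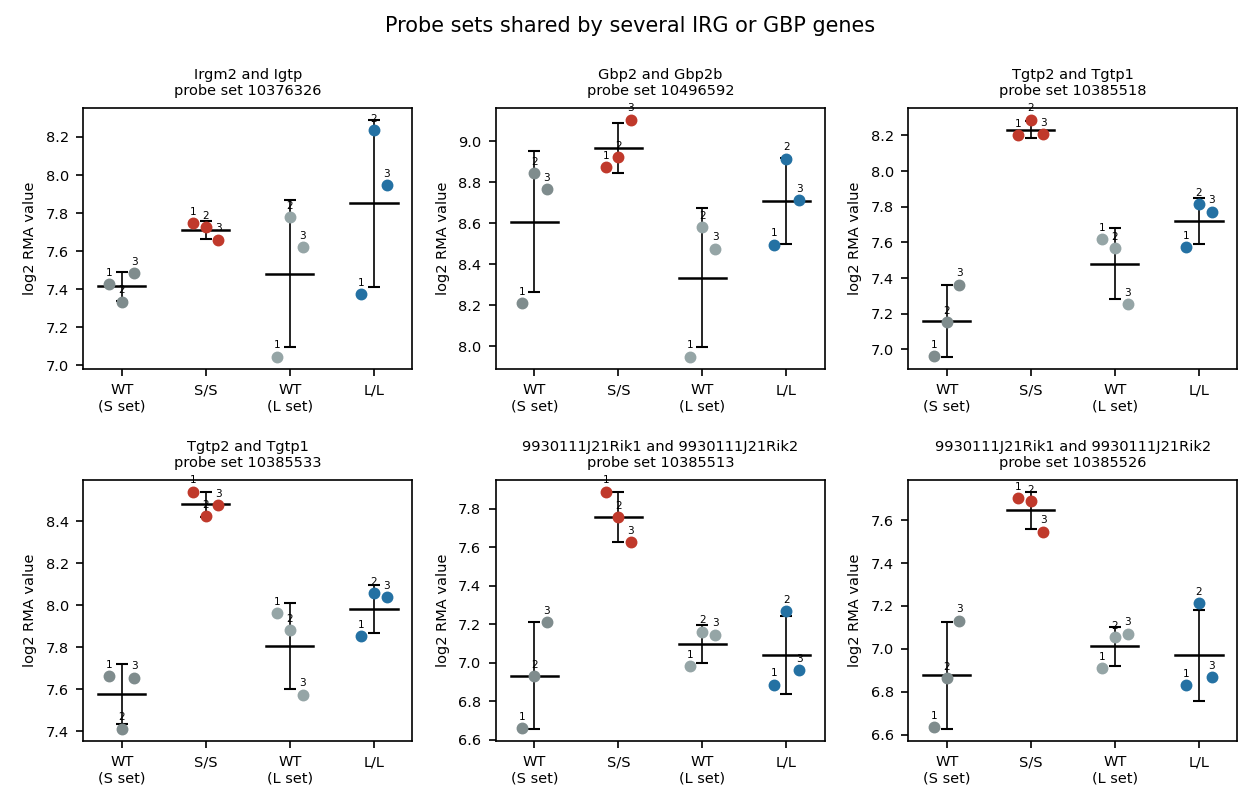
Log2 RMA values of 6 probe sets annotated to more than 1 IRG or GBP gene (points, with the replicate number; bars are mean and SD, n = 3). The S/S arrays of the Tgtp probe sets sit at 8.20 or higher while S controls sit at 7.66 or lower, and the Irgm2 and Igtp groups of the L set spread widely.

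The L/L mutant was compared with L controls. None of the 6 members passed, against 0.0401% of all genes, 8 in number, that passed as higher; 1 member, Irgm1, had an unadjusted p under 0.05. The median difference over the 6 was 0.06, with 6 of 6 positive, and over all genes it was 0.02, with 55.9% positive. Irgm1 read 9.73, 9.86 and 9.71 in controls and 10.02, 10.33 and 10.01 in L/L. The L/L arrays all lay above controls, as they did for 9.71% of all genes, and the difference of 0.36 (SE 0.14) had an unadjusted p of 0.0245 and an adjusted p of 1.00. Irgm1 was the 1 member without overlap.

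The other members overlapped between L/L and its controls. Iigp1 read 5.15, 5.59 and 5.41 in controls and 5.27, 6.12 and 5.54 in L/L, and array 2 was the highest of all 12 arrays. Gbp3 read 6.74, 7.33 and 7.53 in controls and 7.05, 7.52 and 7.16 in L/L. Mx2 read 5.50, 5.91 and 5.86 in controls and 5.68, 6.30 and 5.54 in L/L, where array 2 again stood highest. The differences of these 3 genes were 0.26, 0.04 and 0.08, each with an adjusted p of 1.00. Gbp5 and Mx1 stayed at 4.48 to 4.64 in all 6 arrays of the L set. The probe set of Irgm2 and Igtp read 7.05, 7.78 and 7.62 in controls and 7.37, 8.24 and 7.95 in L/L, a difference of 0.37 (SE 0.22) that did not pass. The probe set of Gbp2 and Gbp2b read 7.95, 8.58 and 8.47 in controls and 8.50, 8.91 and 8.71 in L/L, where the groups overlapped and the difference of 0.37 (SE 0.20) did not pass. The first Tgtp probe set differed by 0.24 and the second by 0.18, also without passing.

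L/L array 2 also had the highest level of the 38 other antiviral interferon-stimulated genes. Their mean, relative to all arrays, was 0.45 there, against −0.11 and 0.09 in the other L/L arrays and −0.26 to 0.14 in L controls. Array 1 of each L group, the male ones, had the lowest macrophage marker levels, −0.87 and −1.19. In controls, array 1 was also the lowest of its group for Iigp1, Gbp3, Mx2 and the probe set of Irgm2 and Igtp, and in L/L it was the lowest for Iigp1, Gbp3 and that probe set.

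**Figure D3:**
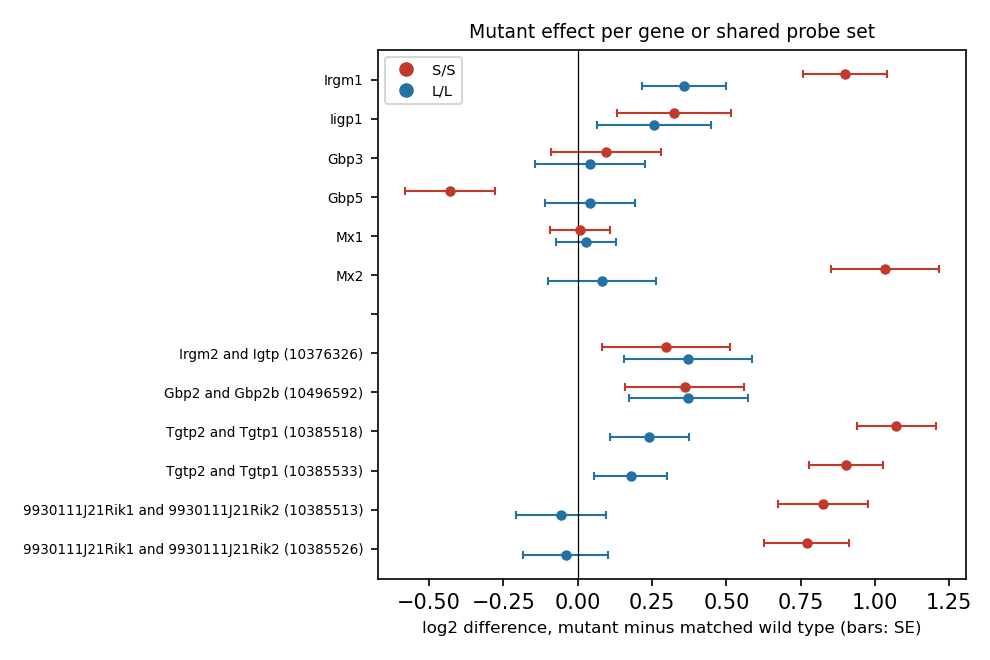
Log2 difference between each mutant and its matched controls for the 6 members (top) and 6 shared probe sets (bottom), with the SE of the model. S/S differences of Irgm1, Mx2 and the Tgtp probe sets lie at 0.90 to 1.07, and all L/L differences lie between −0.06 and 0.37.

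Whether both effects differ was tested directly. None of the 6 members passed, against 3 genes in all (0.015%), while 3 members had an unadjusted p under 0.05. For Mx2 the effects differed by 0.95 (SE 0.26, adjusted p = 0.479), for Irgm1 by 0.54 (SE 0.20, adjusted p = 0.714) and for Gbp5 by −0.47 (SE 0.21, adjusted p = 0.764). For the Tgtp probe sets the effects differed by 0.83 (SE 0.19, adjusted p = 0.44) and 0.72 (SE 0.17, adjusted p = 0.503). A larger effect in S/S than in L/L is therefore not established for any of these genes.

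The controls of both sets carry the same Rb1 genotype and show how far these genes differ between the sets. Differences in embryos, culture or array handling between the sets cannot be told apart here. Irgm1 and Mx2 were higher in L controls than in S controls, by 0.50 (SE 0.14, adjusted p = 0.0454) and 0.65 (SE 0.18, adjusted p = 0.044). These 2 of 6 members compare with 3.54% of all genes that passed as higher. In both genes all L controls lay above all S controls, as for 11.5% of all genes. Without S control 1 neither passed, at 0.34 (adjusted p = 0.0758) and 0.58 (adjusted p = 0.0794), nor did they without both male arrays (0.163 and 0.0822). Of 12 fits that left out 1 array, Irgm1 passed in 2 and Mx2 in 3, and both stayed higher in L controls in all of them. Gbp5 and Mx1 went the other way, with all L controls below all S controls. They differed by −0.33 and −0.18, within the undetected range, and did not pass (limma adjusted p = 0.208 and 0.303). This contrast shares the S controls with the S/S comparison, and for Mx2 those controls lay within the undetected range. In order of the group means, Irgm1 stood at 9.27 in S controls, 9.76 in L controls, 10.12 in L/L and 10.17 in S/S, with the last pair overlapping. Mx2 stood at 5.11, 5.76, 5.84 and 6.14 in the same order, with overlap between each neighbouring pair above the first.

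A relative of the members differed more between the controls of both sets. Gbp2b, the gene long known as mouse Gbp1, read 7.26, 7.88 and 7.61 in S controls and 6.11, 6.14 and 5.94 in L controls. It was 2.86-fold lower in the L set (log2 −1.52, SE 0.14, adjusted p = 0.000511). The mutants followed their sets, at 7.24, 7.55 and 7.30 in S/S and 6.04 ± 0.03 in L/L (SD, n = 3), and neither mutant passed the test against its controls (limma adjusted p = 0.578 and 1.00). Other listed interferon genes that passed in this contrast went both ways. Samd9l (1.03, adjusted p = 0.0291), Bst2, also called tetherin (0.86, adjusted p = 0.0438), Ifi35 (0.49, adjusted p = 0.0425) and the autophagy conjugation enzyme Atg3 (1.00, adjusted p = 0.0237) were higher in L controls. The chemokine Cxcl10 (−0.93, adjusted p = 0.00544) and the signalling inhibitor Socs3 (−0.70, adjusted p = 0.0117) were lower, as was the fibroblast marker Thy1 (−0.49), while Dcn (0.35) and the endothelial marker Tek (0.58) were higher. The probe set that Gbp2b shares with Gbp2 differed by −0.27 between the controls of both sets (adjusted p = 0.463).

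Other IRG and GBP genes with their own probe set numbered 9 of 18 listed, and none passed in either mutant. In S/S their median was −0.01, with Gbp7 at 0.44, Gbp9 at 0.28, Gbp4 at −0.01, Gbp8 at −0.15 and Gm12250, the gene of the effector Irgb10, at −0.21. S/S arrays lay above all control arrays for 2 of the 9, Gbp9 and Gm4951, an IRG relative of Iigp1 at 0.43, against 5.49% of all genes. In L/L the median was 0.07 and the values ran from −0.03 to 0.18. L/L arrays lay above all control arrays for 2 of the 9 as well, Gm12250 and Irgc1, against 9.71% of all genes.

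Along the pathway, the interferon genes did not pass. Of 13 measured interferons 0 passed in either mutant. Ifnb1 read 5.13 in S controls and 5.12 in S/S, inside the undetected range, and Ifng differed by −0.11. Of the 13, 6 had a mean over the 12 arrays of at least 6, above that range, among them Ifng at 6.67 and Ifna5 at 8.68. None of the 6 receptor genes passed. In S/S the differences were 0.07 for Ifnar1, −0.03 for Ifnar2, 0.13 for Ifngr1 and 0.14 for Ifngr2, and in L/L these ran from −0.14 to −0.01. The receptor chains of type III interferons, Il10rb and Ifnlr1, differed by 0.47 (adjusted p = 0.39) and −0.11 in S/S, the former being the highest of the list. Of 21 signalling and transcription factor genes 0 passed, with Stat2 at 0.05, Irf1 at 0.03, Irf9 at 0.07, Irf7 at 0.36 and Irf8 at 0.13 in S/S. The largest value of that list was 0.70, for Usp18, an interferon-induced brake on type I receptor signalling, which did not pass (adjusted p = 0.516).

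The targets were mixed. Of 38 other antiviral genes 0 passed in S/S, but 30 were positive, with a median of 0.17, while 42.4% of all genes were positive. S/S arrays lay above all control arrays for 13 of the 38, against 5.49% of all genes. Examples were Ifit1 at 0.74, Cxcl10 at 0.45, Oasl2 at 0.37 and Rsad2 at 0.19. In L/L 0 of 38 passed, 29 were positive, while 55.9% of all genes were, and the median was 0.13. L/L arrays lay above all control arrays for 4 of the 38, against 9.71% of all genes. Ifit1 was at 0.12, Cxcl10 at 0.13, Oasl2 at 0.31 and Rsad2 at 0.14. Genes of antigen presentation that interferon gamma induces had a median of −0.06 in S/S, with 6 of 13 positive, and of 0.14 in L/L, with 10 of 13 positive. S/S arrays lay above all controls for 2 of the 13, against 5.49% of all genes, and below them for 3. L/L arrays lay above all controls for 5 of the 13, against 9.71% of all genes, and below them for 0. The share of all genes with arrays below all controls was not computed. In S/S Psmb8, Psmb9 and Tap1, encoding immunoproteasome subunits and a peptide transporter, were at −0.07, −0.19 and 0.15, and Nlrc5, the activator of class I genes, was at −0.21. In L/L the same 4 genes were at 0.35, 0.22, 0.39 and −0.02. Of 15 autophagy conjugation and targeting factors 0 passed in either mutant, with Atg5 at 0.19 and Gabarapl2 at 0.03 in S/S.

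**Figure D4:**
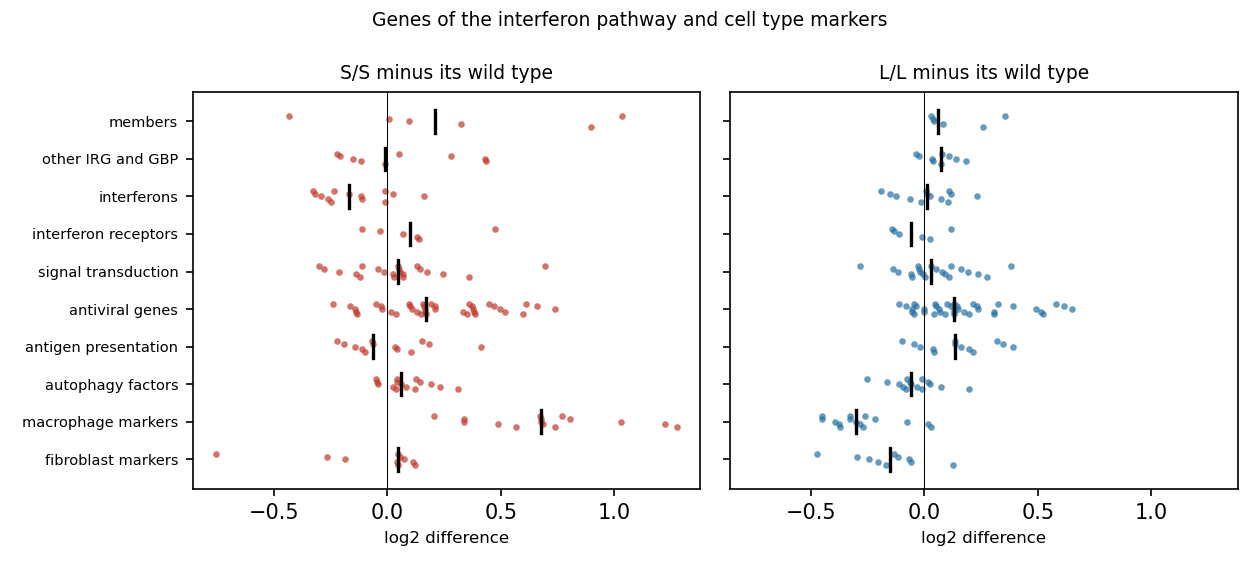
Log2 differences of single genes (points) and list medians (black bars) in S/S (left) and L/L (right), for the 6 members, the pathway lists and 2 lists of cell type markers. In S/S the antiviral genes have a median of 0.17 and the macrophage markers one of 0.68, and in L/L the macrophage markers have a median of −0.30.

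Members did not vary as a block. Across 12 arrays, Irgm1 and Mx2 correlated at r = 0.89, Iigp1 and Mx2 at 0.77, Iigp1 and Gbp3 at 0.69 and Irgm1 and Gbp3 at 0.34. After removal of the group means these were 0.63, 0.87, 0.72 and 0.21. Gbp5 and Mx1, both in the undetected range, correlated negatively over 12 arrays with each of the other members. The most negative pair was Irgm1 and Gbp5, at −0.78 and, after that removal, −0.74. Gbp5 and Mx1 correlated with each other at 0.38. Some values of Iigp1 and Mx2 also lay in the undetected range. The arrays share normalization and sets, so these are descriptions. Of genes outside the list, those most like Irgm1 were Thrap3 (r = 0.91, and 0.62 after removal of the group means), Fryl (0.90 and 0.59) and Dennd2c (0.90 and 0.78). Those most like Gbp3 were Selenop (0.87 and 0.94), Tns3 (0.86 and 0.86) and Cdh4 (0.85 and 0.88). The mean profile of Irgm1 and Gbp3, the members with a mean of at least 6, was most like Zfpm2 (0.92 and 0.79), Gbp9 (0.89 and 0.86), C130050O18Rik (0.88 and 0.70), the interferon-stimulated gene Rtp4 (0.87 and 0.90) and Lpl (0.86 and 0.91).

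**Figure D5:**
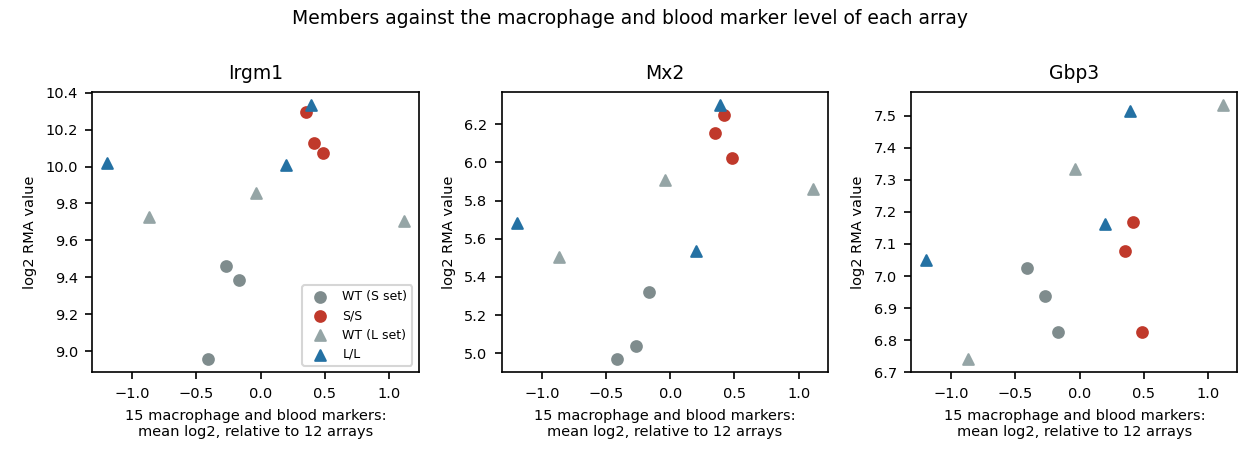
Log2 RMA value of Irgm1, Mx2 and Gbp3 in each array (y axis) against the mean of 15 macrophage and blood cell markers relative to 12 arrays (x axis). In L controls the marker level is −0.87, −0.04 and 1.11, where Irgm1 is 9.73, 9.86 and 9.71 and Gbp3 is 6.74, 7.33 and 7.53, and in the S set the markers separate S/S from its controls as Irgm1 and Mx2 do.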

How the data were processed

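Per the labels, total RNA was extracted with TRIzol and hybridised to Affymetrix Mouse Gene 1.0 ST arrays. The deposited values are log2 RMA values made by the authors with Partek, per the series design text and the submitters' processing notes; the genome build and tool version are not given in the sources used here. Values ran from 2.43 to 14.67, which gave the log2 scale. Of 35556 probe sets, 21789 had 1 symbol in the supplied annotation, 1621 several and 12146 none; the probe set with the highest mean represented each of 19938 genes, and no dim values were removed.

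Differences were tested with limma 3.58.1 (R 4.3.3), 1 model of 4 group means over 12 arrays (8 residual and 5.19 prior degrees of freedom), two-sided, with Benjamini-Hochberg adjustment over all genes and a threshold of 0.05. Errors are SDs over 3 arrays or model SEs; precision is limited by the number of arrays. The procedure was tested on simulated data. Promoter sequences are RefSeq's; with no build for the arrays, RefSeq served otherwise for names and gene order.

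The members, gene lists and tests were chosen with earlier results of these data known. All 6 measured members were named, with every list gene that passed and a fixed set of examples per list. Usp18, Gm4951 and the probe sets beside Irgm1 were chosen after their values were seen. Il10rb, Ifnlr1, Emcn, Col1a1, Irgc1, Ifna5 and the probe sets of Gvin1 and Ifi47 were also outside the fixed set. Likeness was the Pearson correlation over 12 arrays, for members with a mean of at least 6.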

Additional observations from a re-analysis of the deposited data

Results flagged for a closer look

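The 2 probe sets annotated to both Tgtp1 and Tgtp2 lie outside the 1-symbol rule and were read only as additional data. Their S/S differences were 1.07 (probe set 10385518) and 0.90 (probe set 10385533), with 3 of 3 S/S arrays above all controls. They passed in 9 of 12 fits that left out 1 array each. Both lost the call without S control 2 (adjusted p = 0.0573 and 0.0742), S/S array 1 (0.0568 and 0.0913) or S/S array 2 (0.0721 and 0.0827), and with each set fitted alone (0.11 and 0.134).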

How the results depend on the processing

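Irgm1 in S/S kept its direction in all 22 alternatives (0.74 to 1.00) and its call in 11. Mx2 in S/S kept its direction in all 21 and passed in 5, among them each set fitted alone (adjusted p = 0.0388), an intensity trend (0.0477) and array weights (0.0106). The number of members called in S/S was 2 with an intensity trend or array weights, 0 without both male arrays or with each probe set tested (an alternative chosen after seeing the data), and 0 to 2 when single arrays were left out. With array weights 1 member, Mx2, passed for the difference of effects. Between the controls of both sets, 1 member passed after quantile normalization or with genes below a mean of 6 removed, 0 without both male arrays or with each probe set tested, and 0 to 2 without single arrays. With array weights 3 members passed in that contrast, Irgm1, Mx2 and Gbp3, the last at a limma adjusted p of 0.0476. The median member difference in S/S was 0.50 with genes below a mean of 6 removed, which leaves 2 members. All genes called in S/S numbered 24, and 44 with each set fitted alone, 415 with array weights, 37 with the replicate block or without both male arrays, and 2 to 38 without single arrays. In L/L they numbered 8, and 5 with each set alone or the replicate block, 336 with array weights, 2 without both male arrays or with each probe set tested, and 2 to 26 without single arrays. For the difference of effects they numbered 3, and 8 after quantile normalization, 293 with array weights, 10 with each probe set tested, and 3 to 21 without single arrays. Between the controls of both sets they numbered 1736, and 2686 after quantile normalization, 6520 with array weights, 304 without both male arrays, and 525 to 2078 without single arrays.

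Signs changed only for differences that never passed: Gbp3 in L/L (−0.039 with array weights, −0.10 without both male arrays, −0.19 to 0.21 without single arrays) and between effects (−0.11 to 0.29), Iigp1 between effects (−0.0052 without both male arrays, −0.12 to 0.30), Mx1 between effects (0.0024 after quantile normalization, 0.071 with array weights, −0.080 to 0.061) and in S/S (−0.053 to 0.088), and Mx2 in L/L (−0.15 to 0.23). The cause of these changes was not tested. Same-numbered arrays did not deviate together in every pair (r from −0.12 to 0.47 in the S set, 0.06 to 0.60 in the L set), so the numbers were not taken as pairs; with the replicate block Irgm1 kept its call in S/S (adjusted p = 0.0247) and the Tgtp probe sets lost theirs (0.062 and 0.0693). The replicate block could not be fitted to the contrast of the controls, and removing genes below a mean of 6 leaves out Iigp1, Gbp5, Mx1 and Mx2. Signal near the undetected level limits Gbp5, Mx1, Iigp1 and the wild-type level of Mx2.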
